A study of Mus musculus with 185 samples.

Results

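The 36 genes described here are a list of immediate early and heat shock genes, which cells switch on within minutes to hours of a stimulus or stress, and which tissue dissociation can induce as well. They were taken by gene symbol from the deposited table of counts, where they are 36 of 45661 genes, and comprise 27 immediate early genes and 9 genes of heat shock proteins and their cochaperones. The rule used gene symbols and no threshold on a value, but the list was chosen with earlier results of these data known. They were followed in single Langerhans cells (LCs), the mononuclear phagocytes of the epidermis, of 2 origins. B6 Cd207DTR mice carrying CD45.1 were lethally irradiated and given wild-type CD45.2 bone marrow, and later received a low dose of diphtheria toxin (DT, 5 ng per gram of body weight), which kills cells that express the toxin receptor from the Cd207 (Langerin) locus. At 2 months after DT, donor CD45.2 cells were sorted as monocyte-derived LCs (moLCs) and host CD45.1 cells as embryonic LCs (eLCs), so the receptor allele is carried by eLCs and not by moLCs, and all cells come from irradiated, DT-treated chimeras. Cells were index-sorted into 2 plates through a gate on CD11c, CD11b, CD24, MHCII and EpCAM (CD326), and 185 cells were deposited.

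Of these, 3 moLCs were set aside because mitochondrial genes took over 5% of their reads, which left 182 cells: 67 moLCs and 29 eLCs on plate 1, and 36 moLCs and 50 eLCs on plate 2. Each cell held between 432614 and 4525429 reads, and the median was 2948819 for moLCs against 2779080 for eLCs. The labels name no animal, so each origin is 1 sample with no replicate: no test was made, and a difference is described by its size and by whether it was seen on both plates. Of the LC genes, Cd74 was read in every cell and Epcam, whose protein was in the gate, in 99% of moLCs and 98.7% of eLCs. Cd207 was read in 99% and 100% of cells, at 26237 against 2159 CPM (counts per 1000000 reads). The part of the receptor allele, which eLCs carry at that locus, was not tested. Summed LC markers had medians of 196330 CPM in moLCs and 180119 CPM in eLCs. Cd207 is among the 10 markers summed. Of the 10, 5 were higher in moLCs, and their median log2 ratio of moLC over eLC was -0.015. The moLC in well B6 of plate 1 held only 11321 CPM, with 784 CPM on dermal DC1 markers. The moLC in well G9 of plate 2 held 45781 CPM. Summed markers of keratinocytes, T cells, monocytes and neutrophils, and melanocytes had a median of 0 CPM in both origins. Those of dermal DC1, mostly Irf8, had medians of 82.3 CPM in moLCs and 64.7 CPM in eLCs, above 0 in 67 and 55 cells.

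Immediate early genes need no new protein to be transcribed. Growth factors, cytokines, pathogen signals and mechanical stress reach them through MAP kinases, and their products include the AP-1 factors, which drive later waves of transcription, and phosphatases and mRNA-decay factors that end the response. Heat shock genes are held ready by a paused polymerase and are released when the factor HSF1, freed by unfolded protein, binds repeats of GAA and TTC in their promoters. Enzymatic digestion of tissue at warm temperature, the step that frees LCs from the epidermis, can set off both programmes before cells are lysed.

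The promoters of some inducible genes are shown first, since they show the letters of the response elements searched for. RefSeq promoter windows (GRCm38.p6) were matched for 30 of the 36 genes, 24 immediate early and 6 heat shock. Hspa8, Hsp90aa1, Hsp90ab1, Egr1, Egr3 and Ier2 were not matched. The 250 bases before each start were searched. A gene was counted when any of its windows held the motif. The inverted repeat of the heat shock element, GAANNTTC or TTCNNGAA, was found in 5 of the 6 heat shock promoters (Hspa1a, Hspa1b, Hspe1, Dnaja1 and Hsph1) and in 3 of the 24 immediate early promoters (Jun, Fosl2 and Egr2), against 14.5% of all 27025 genes with a window. Both motifs are palindromes, so 1 strand covers both. The capitals below mark these repeats in bases upstream of any annotated exon of the gene. Hspa1a lies at chr17:34972157-34972406, Hspa1b at chr17:34959239-34959488, Hspe1 at chr1:55087898-55088131 and Dnajb1 at chr8:83607925-83608174, the first pair on the minus strand and the others on the plus strand.
Hspa1a: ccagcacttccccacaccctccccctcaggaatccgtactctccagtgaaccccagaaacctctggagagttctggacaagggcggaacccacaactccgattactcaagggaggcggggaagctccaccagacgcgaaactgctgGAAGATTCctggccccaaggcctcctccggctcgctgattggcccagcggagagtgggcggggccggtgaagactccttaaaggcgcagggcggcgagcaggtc
Hspa1b: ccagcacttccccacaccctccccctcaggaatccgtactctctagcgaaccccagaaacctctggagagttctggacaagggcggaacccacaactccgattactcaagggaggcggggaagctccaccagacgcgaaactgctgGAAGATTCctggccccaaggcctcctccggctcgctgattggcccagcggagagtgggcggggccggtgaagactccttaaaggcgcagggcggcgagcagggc
Hspe1: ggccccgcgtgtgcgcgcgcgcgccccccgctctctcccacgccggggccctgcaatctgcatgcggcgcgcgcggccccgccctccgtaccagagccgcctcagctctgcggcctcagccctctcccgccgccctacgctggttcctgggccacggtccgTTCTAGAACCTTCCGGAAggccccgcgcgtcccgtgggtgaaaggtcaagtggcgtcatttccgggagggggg
Dnajb1: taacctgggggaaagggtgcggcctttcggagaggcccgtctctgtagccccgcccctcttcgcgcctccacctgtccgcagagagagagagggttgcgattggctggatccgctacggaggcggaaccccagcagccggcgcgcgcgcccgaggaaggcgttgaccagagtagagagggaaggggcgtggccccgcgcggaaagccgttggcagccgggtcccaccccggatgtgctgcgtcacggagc
Hspa1a and Hspa1b, neighbouring genes for nearly the same HSP70 protein, share 247 of 250 promoter bases, including the repeat. Hspe1, the mitochondrial cochaperonin, carries a run of 3 overlapping repeats, and the Dnajb1 window holds none.

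The cyclic AMP response element core, TGACGT or ACGTCA on either strand, was found in 9 of the 24 immediate early promoters (Fos, Atf3, Egr2, Nr4a3, Dusp1, Dusp5, Btg1, Btg2 and Ppp1r15a) and in none of the 6 heat shock promoters, against 7.29% of all genes with a window. The CArG box bound by SRF was found in Egr2, Dusp5 and Zfp36, against 1.62% of genes, and the EGR site, GCGGGGGCG or CGCCCCCGC, in 6 immediate early promoters and 1 heat shock promoter, against 2.93%. The AP-1 site TGANTCA was found in Csrnp1 alone, against 7.82%. Capitals mark the response element core and, in Fos, the TATAAA box as well, which 7.59% of windows hold on the gene's strand. Fos lies at chr12:85473640-85473889 on the plus strand and Dusp1 at chr17:26508520-26508722 on the minus strand.
Fos: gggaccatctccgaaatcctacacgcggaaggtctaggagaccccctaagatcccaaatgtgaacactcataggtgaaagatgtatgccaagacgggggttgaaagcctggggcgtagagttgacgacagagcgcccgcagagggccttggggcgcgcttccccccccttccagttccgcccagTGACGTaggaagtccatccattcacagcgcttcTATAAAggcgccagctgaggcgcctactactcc
Dusp1: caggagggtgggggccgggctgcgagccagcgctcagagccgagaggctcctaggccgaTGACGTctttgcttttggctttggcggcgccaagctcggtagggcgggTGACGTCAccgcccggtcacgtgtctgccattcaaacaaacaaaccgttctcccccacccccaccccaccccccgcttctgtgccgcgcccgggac
A match is only a run of letters in these windows.

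Of the 36 genes, 33 reached the read minimum, a read in 25% of moLCs or of eLCs, 24 immediate early and all 9 heat shock genes. Egr2, Egr3 and Klf2 did not. Of the 33, 27 had a higher level in moLCs than in eLCs, where the level is the CPM over the summed reads of a group. Among all genes that reached the read minimum this held for 2569 of 6522. The share of cells with a read went the other way, being higher in moLCs for 11 of the 33 genes and in eLCs for 19. The median log2 ratio of moLC over eLC was 0.42, and over the 6522 genes of the table that reached the read minimum it was -0.10. The gap was mostly on plate 1: the median log2 ratio over the 33 genes was 0.70 on plate 1 and 0.04 on plate 2. Overall and on both plates alike, 17 of the 33 were higher in moLCs (19.5% of the 6522 genes, as are the shares in brackets that follow) and 1, Fosl2, was higher in eLCs (33.7%).
A gene was called when it differed by 2-fold or more overall and on each plate, always with the same sign. Of the 33, Hspa1b alone was called higher in moLCs (0.813%) and 0 were called higher in eLCs (1.21%), where 2.02% were called in either direction. The number that were 2-fold or more higher in moLCs was 7 of the 33 overall (2.09%), 10 on plate 1 (5.54%) and 1 on plate 2 (3.91%). In moLCs themselves, 8 of the 33 were 2-fold or more lower on plate 2 than on plate 1 (5.23%). None of the 33 was 2-fold higher in eLCs on either plate, while 374 of the 6522 genes were on plate 1 and 491 on plate 2.

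**Figure D1:**
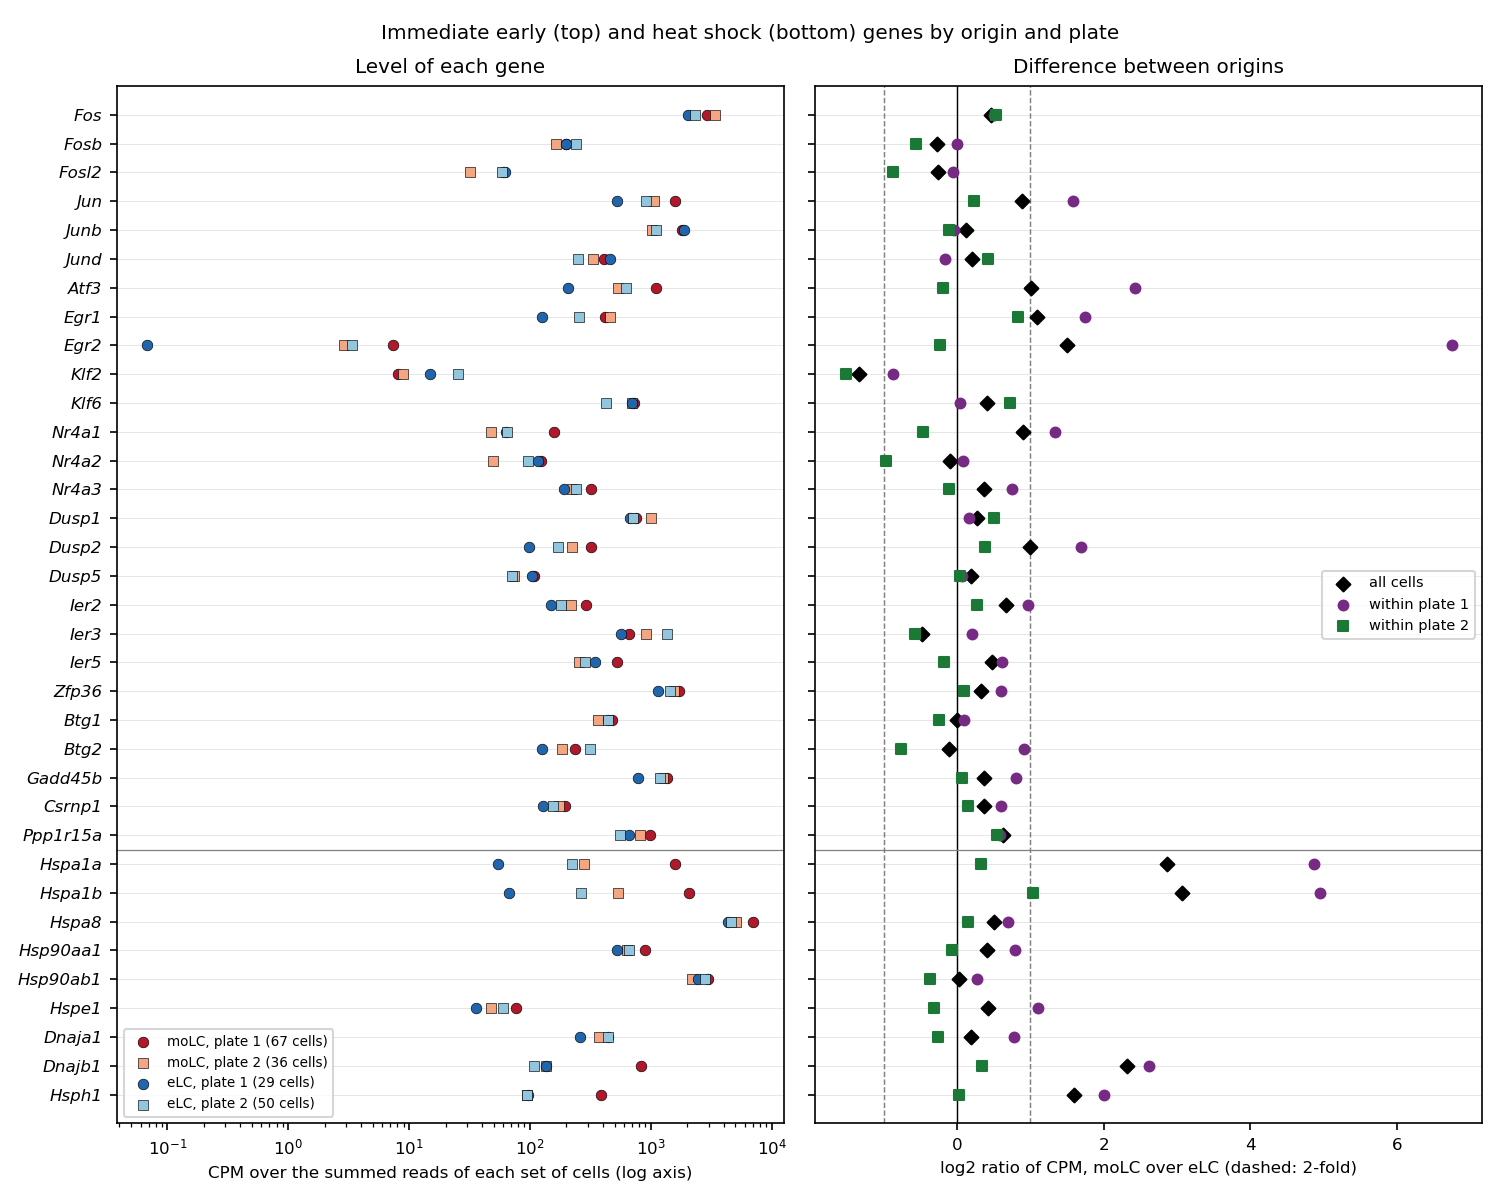
Left, CPM of 35 genes (log axis) over the summed reads of the 4 sets of cells given by origin and plate. Right, log2 ratio of moLC over eLC in all cells (diamonds), on plate 1 (circles) and on plate 2 (squares). Egr3, with reads in 1 moLC, is left out. Most plate 1 ratios lie right of those of plate 2, and the widest gaps are at Hspa1a and Hspa1b and, with few reads, Egr2.

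The heat shock genes differed most. Hspa1a and Hspa1b, the stress-inducible HSP70 genes, reached 1127 and 1545 CPM over all moLCs against 155 and 184 CPM over all eLCs, which are log2 ratios of 2.86 and 3.07. The lowest, median and highest moLC held 0, 23.8 and 55660.4 CPM of Hspa1b, and the lowest, median and highest eLC 0, 1.38 and 4204 CPM. For Hspa1a the same values were 0, 29.5 and 34719 CPM in moLCs and 0, 8.55 and 3237 CPM in eLCs. The median and the highest cell were both higher in moLCs, and the ranges overlapped. Reads of Hspa1b were seen in 68.9% of moLCs (exact binomial 95% interval 59.1 to 77.7) and in 54.4% of eLCs (42.8 to 65.7). For Hspa1a the shares were 68.9% and 62%. These intervals cover the drawing of cells within 1 sample and do not compare the origins. With every cell thinned to 2052512 reads the shares were 67.7% and 53.7% for Hspa1b.
On plate 1 alone the log2 ratios were 4.86 for Hspa1a and 4.95 for Hspa1b, and on plate 2 alone 0.33 and 1.03. The plates moved in opposite directions: from plate 1 to plate 2, Hspa1b went from 2082 to 537 CPM in moLCs and from 67.2 to 263 CPM in eLCs. The call on Hspa1b rests on single cells of plate 2. Without the moLC in well B9 of plate 2, which held 10005 CPM, its log2 ratio there was -0.13. The 2 genes share 99.1% of 2200 aligned transcript bases, so reads could have been split between them or dropped.

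Dnajb1, the HSP40 cochaperone that hands clients to HSP70, came to 591 against 118 CPM. Its log2 ratio was 2.32, with 2.62 on plate 1 and 0.35 on plate 2. Its lowest, median and highest cell held 0, 119 and 27801 CPM among moLCs and 0, 75 and 425 CPM among eLCs. A single moLC gave 45.9% of all moLC reads of the gene. Hsph1, the HSP110 exchange factor of HSP70, came to 286 against 94.9 CPM, a log2 ratio of 1.59 that was near 0 on plate 2 (0.02). Here the median cell was lower in moLCs, 0.636 against 47.2 CPM, while the highest moLC held 14025 CPM against 646 CPM in the highest eLC. The same moLC, in well G11 of plate 1, was the highest for both genes, and without it the log2 ratios were 1.45 for Dnajb1 and 0.66 for Hsph1.

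**Figure D2:**
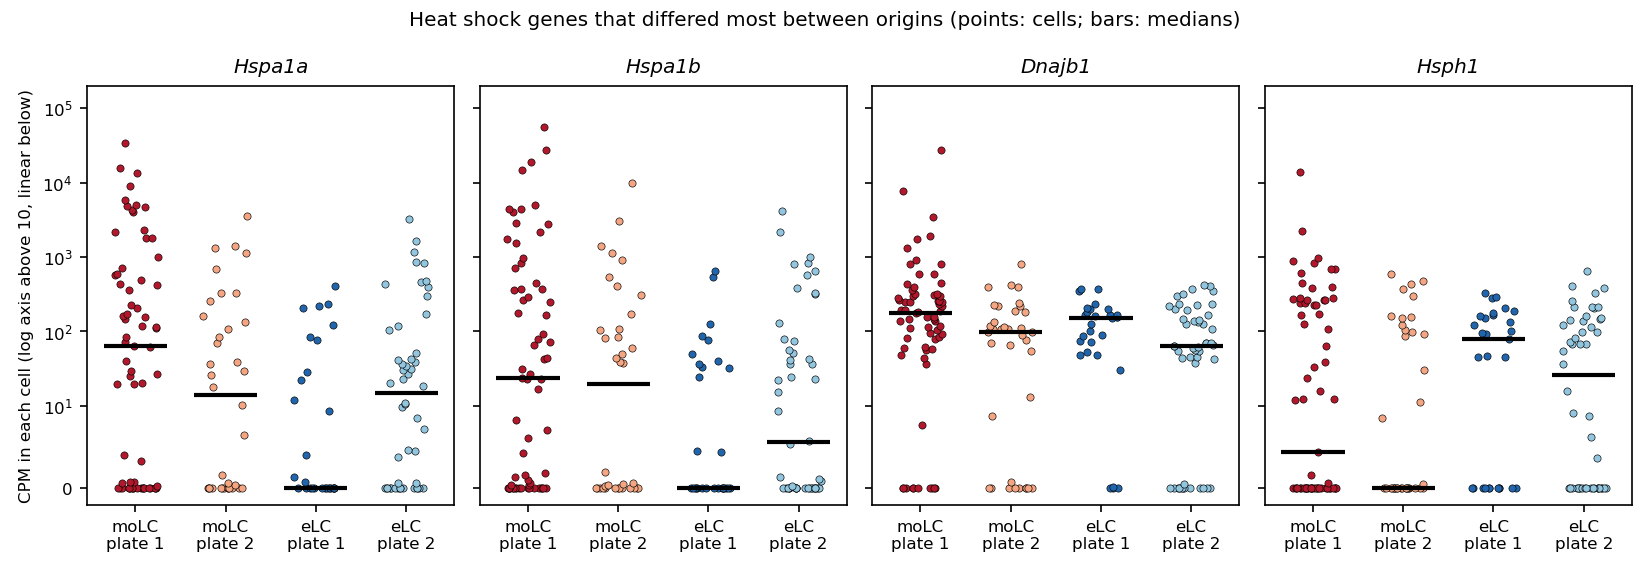
CPM of Hspa1a, Hspa1b, Dnajb1 and Hsph1 in each cell (log axis above 10, linear below), by origin and plate, with bars at the medians. Cells of all 4 sets lie at 0 or low values, and the highest points, 34719 CPM of Hspa1a, 55660.4 CPM of Hspa1b, 27801 CPM of Dnajb1 and 14025 CPM of Hsph1, are moLCs of plate 1.

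The constitutive chaperones differed less. Hspa8 (HSC70) had the highest level per kilobase of exon on the list, 1478 against 1041 CPM per kb, and was read in every cell. Its lowest, median and highest cell held 415, 5206 and 36304 CPM among moLCs and 688, 3980.3 and 11856 CPM among eLCs, and its log2 ratio was 0.51 (0.70 and 0.14 within the plates). Hsp90ab1, the constitutive HSP90, was alike at 2708 and 2665 CPM, with log2 ratios of 0.28 on plate 1 and -0.36 on plate 2. Hsp90aa1, the inducible HSP90, had a log2 ratio of 0.42, Hspe1 0.42 and Dnaja1, a second HSP40 cochaperone, 0.19. All 3 turned from above 0 on plate 1 (0.79, 1.10 and 0.78) to below 0 on plate 2 (-0.07, -0.32 and -0.26). Hspe1 was seen in fewer moLCs than eLCs, 71.8% against 84.8%, and the moLC of well G11 held 28.3% of its moLC reads, without which its log2 ratio was -0.05.

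Summed over the 9 genes, heat shock reads came to 13904 CPM for moLCs against 8718 CPM for eLCs. The log2 ratio was 0.67, with 1.04 on plate 1 and 0.02 on plate 2. The share per cell ran from 0.169% through a median of 0.885% to 12.6% in moLCs, and from 0.294% through 0.718% to 2.26% in eLCs. The medians of moLCs and eLCs were 0.953% and 0.751% on plate 1, and 0.688% and 0.696% on plate 2. By gene, the median cell was higher in eLCs for 2 of the 9 on plate 1 and for 7 on plate 2. More than 2% of reads were on these genes in 18 moLCs (17.5%, exact binomial 95% interval 10.7 to 26.2) and in 1 of 79 eLCs (1.27%, 0.0320 to 6.85). Above 3% were 8 moLCs, 7 of them on plate 1, and no eLC, where a count of 0 of 79 allows a share of up to 4.56% (upper exact bound).
The 5 cells with the most reads on Hspa1a, Hspa1b, Dnajb1 and Hsph1 were moLCs of plate 1, in wells H4, G11, F9, G5 and E12, and held 58.2% of the reads on these 4 genes of all 182 cells. They were not alike. Well H4 held 55660.4 CPM of Hspa1b with 3483 CPM of Dnajb1, and well G11 held 18857 CPM of Hspa1b with 27801 CPM of Dnajb1 and 36304 CPM of Hspa8. Well F9 held 27216 CPM of Hspa1b but 1865 CPM of Hspa8, less than the median cell of either origin. These 5 cells had 2597 to 3503 genes with a read, against medians of 4026 in moLCs and 4488 in eLCs. On summed keratinocyte markers they held 0 to 324 CPM. That summed level ran from 0 to 686 CPM over moLCs and from 0 to 95.3 CPM over eLCs, above 0 in 25 and 10 cells, with 3 of the 8 markers (Krt1, Krt15 and Dsp) at 0 throughout. The part of gene number or of keratinocyte RNA in these values was not tested. Without these 5 cells the log2 ratios fell to 1.64 for Hspa1a, 1.40 for Hspa1b, 0.86 for Dnajb1 and 0.36 for Hsph1, and to 0.31 for the summed heat shock genes.

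**Figure D3:**
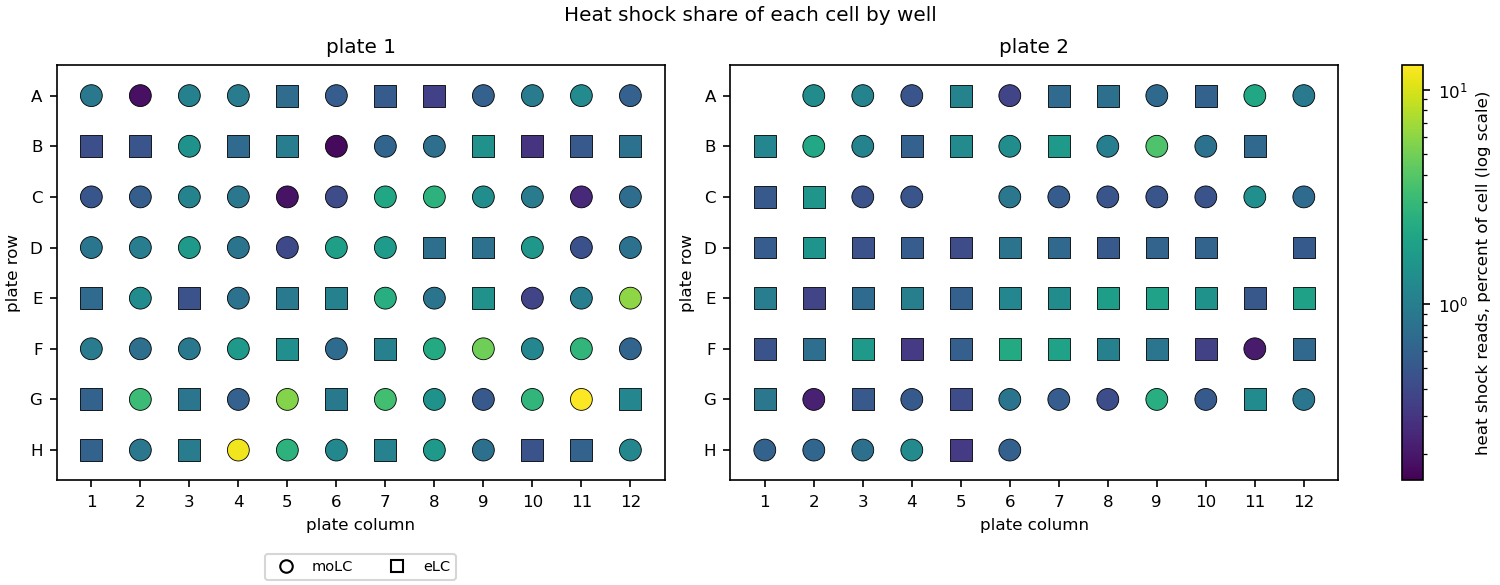
Heat shock share of each cell by its well on the 2 plates (colour on a log scale, circles moLCs, squares eLCs). The brightest wells are moLCs in rows E to H of plate 1, and rows D to F of plate 2 hold nearly only eLCs.

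Position on the plate went along with the heat shock share on plate 1. Among its moLCs the Spearman correlation of the share with plate row, from A to H, was 0.42 (67 cells), and among its eLCs 0.30 (29 cells). On plate 2 it was -0.25 in moLCs (36 cells) and -0.07 in eLCs (50 cells). Row G of plate 1 had the highest moLC median, 2.96% over 8 cells, while the 4 eLCs of that row had a median of 0.877%. The share was also lower where more genes were read, with rho of -0.52 and -0.44 in moLCs of the plates and 0.06 and -0.33 in eLCs, which hold each cell's own reads on both sides. Fewer genes were read in moLCs than in eLCs, with medians of 4026 against 4488 on plate 1 and 4010 against 4462.5 on plate 2. The part of gene number in the difference was not tested. Rows were not shared evenly between origins, row C of plate 1 holding moLCs only and rows D and E of plate 2 eLCs only, and the part of position in the difference was not tested.

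Among immediate early genes, AP-1 took the most reads. AP-1 is a dimer of a FOS and a JUN protein, and ATF3 is a stress-induced relative that often acts as a repressor. Fos, the most abundant of the 27, was at 3048 against 2209 CPM, a log2 ratio of 0.46 that was steady over the plates (0.51 and 0.53). The lowest, median and highest cell held 0, 1058 and 23268 CPM among moLCs and 0, 509.8 and 25161 CPM among eLCs. The highest cells of both origins were close, unlike for Hspa1b, and the median was higher in moLCs. Cells with a Fos read made up 84.5% of moLCs and 75.9% of eLCs (85.4% and 76.1% after thinning). Without the eLC in well F6 of plate 2, which held 25161 CPM, the log2 ratio was 0.71.
Jun was at 1396 and 757 CPM, with a log2 ratio of 1.59 on plate 1 and 0.23 on plate 2, and Atf3 at 908 and 451 CPM, with 2.43 and -0.20. Both fell in moLCs and rose in eLCs from plate 1 to plate 2: Atf3 went from 1104 to 539 CPM in moLCs and from 205 to 618 CPM in eLCs. Junb had a log2 ratio of 0.13 overall but -0.04 and -0.12 on the plates, and Jund 0.20, with -0.16 on plate 1 and 0.42 on plate 2. Fosb and Fosl2 were lower in moLCs, at -0.27 and -0.26, with most of it on plate 2 (-0.56 and -0.87).

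The zinc-finger factors were uneven. Egr1, the factor that reads serum and stress signals, was at 432 against 203 CPM. Its log2 ratio was 1.09, with 1.75 on plate 1 and 0.83 on plate 2. It had reads in 43.7% of moLCs against 44.3% of eLCs, so the gap was in the level of the positive cells. It leaned on single cells: 1 eLC of plate 2 held 39.2% of all eLC reads, and leaving out 1 cell at a time gave log2 ratios from 0.68 to 1.79. Klf6 had a log2 ratio of 0.42. Klf2, a factor kept high in quiescent leukocytes, was the other way round, at 8.41 against 21.3 CPM (log2 -1.34, with -0.87 and -1.52 within the plates), but was read in only 16.5% and 21.5% of cells. Egr2 had reads in 7.77% of moLCs against 5.06% of eLCs. Egr3 was read in 1 moLC and in 0 of 79 eLCs, which allows up to 4.56% of such cells to hold a read (exact bound, counting error only).

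The 3 NR4A receptors, orphan nuclear receptors that act without a known ligand, were each higher in moLCs on plate 1 and lower on plate 2. Nr4a1 (NUR77) had a log2 ratio of 0.91, with 1.34 and -0.46 on the plates. Nr4a2 had -0.10 (0.08 and -0.97) and Nr4a3 0.37 (0.75 and -0.11). Nr4a3 was seen in most cells, 90.3% of moLCs and 96.2% of eLCs, while Nr4a1 and Nr4a2 were read in 36.7% to 45.6% of cells of either origin.

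The MAP kinase phosphatases, nuclear enzymes that shut off the kinases that induced them, were all 3 higher in moLCs overall and on both plates, as 19.5% of all genes tested were. Dusp1, which acts on p38 and JNK, was at 839.6 and 694 CPM (log2 0.27). Dusp2 (PAC1) was at 284 against 142 CPM, with log2 ratios of 1.69 on plate 1 and 0.38 on plate 2. Dusp5, which acts on ERK, was at 96.4 and 84.4 CPM (log2 0.19), with only 0.06 and 0.04 on the plates. Dusp2 had reads in 61.2% of moLCs against 64.6% of eLCs, so the gap lay in the level rather than in the number of cells. The log2 ratio of Dusp1 was lowered by 1 eLC of plate 2, without which it was 0.64.

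The remaining 9 immediate early genes lay between -0.48 and 0.67 on the log2 scale. Ppp1r15a (GADD34), which restarts translation after eIF2 alpha phosphorylation, was the most even of them across plates (log2 0.59 and 0.55). Zfp36 (tristetraprolin), which targets cytokine mRNAs for decay, was at 1655 and 1317 CPM, read in 96.1% of moLCs and in every eLC, with a log2 ratio of 0.33. Gadd45b, a stress sensor upstream of p38, had 0.37, Csrnp1 0.37, Ier5 0.48 and Ier2 0.67. Ier5 turned to -0.18 on plate 2.
Ier3, a survival factor induced by NF-kappa B, was the largest difference towards eLCs among the 33 genes, at 746 against 1039 CPM (log2 -0.48). It was not steady: the log2 ratio was 0.20 on plate 1 and -0.57 on plate 2, and 1 eLC of plate 2 held 17.6% of all eLC reads, without which it was -0.22 overall. The antiproliferative genes Btg1 and Btg2 had log2 ratios of -0.01 and -0.11. Btg2 went from 0.91 on plate 1 to -0.77 on plate 2, and was 0.14 overall without 1 eLC of plate 2. Btg1 was the flattest of the list, read in every cell, at 438 and 439.8 CPM.

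Summed over the 27 genes, immediate early reads came to 16584 CPM for moLCs against 12792 CPM for eLCs. The log2 ratio was 0.37, with 0.57 on plate 1 and 0.15 on plate 2. The share per cell ran from 0.149% through a median of 1.14% to 6.39% in moLCs and from 0.236% through 0.806% to 5.96% in eLCs. The highest cells of both origins were close, unlike for heat shock. More than 2% of reads were on the 27 genes in 29 moLCs (28.2%, exact interval 19.7 to 37.9) and in 13 of 79 eLCs (16.5%, 9.06 to 26.5). On plate 1 the shares were 28.4% and 10.3% of cells, and on plate 2 27.8% and 20%. The summed log2 ratio stayed at 0.37 without the 5 cells high in heat shock genes.

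**Figure D4:**
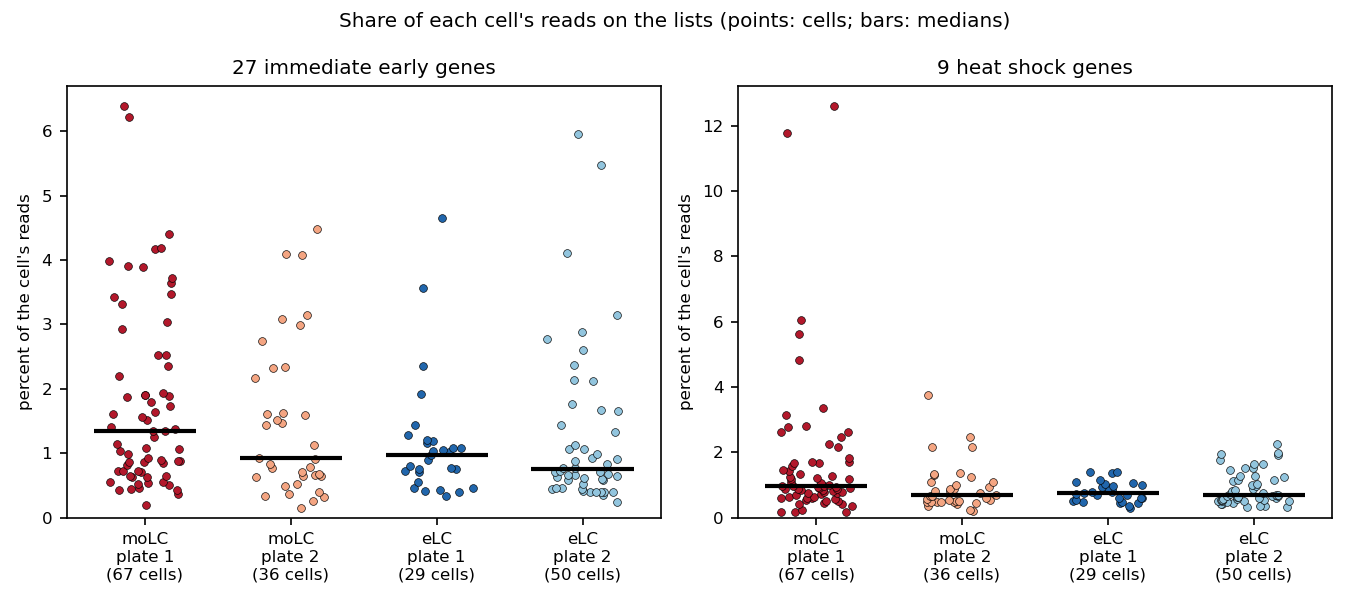
Percent of each cell's reads on the 27 immediate early genes (left) and the 9 heat shock genes (right), by origin and plate, with bars at the medians. Cells above 4% in immediate early genes are in all 4 sets, and the 5 cells above 4% in heat shock genes are all moLCs of plate 1.

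Members were next compared with each other across cells. Spearman correlations of CPM were taken within each of the 4 sets of cells (67, 36, 29 and 50 cells) and summarised by their median. Cells of a set share a plate, and depth and dropout lie behind every pair. Over the 276 pairs of the 24 immediate early genes the median rho was 0.209, and 88 pairs (31.9%) were above 0.3. Over the 36 pairs of heat shock genes it was 0.318, with 19 (52.8%) above 0.3. Pairs across the 2 groups had a median of 0.098. Among 5955 genes outside the list the median over all pairs was 0.017, and 0.263% were above 0.3.
The immediate early genes differed in how closely they followed the rest of their group. Zfp36, Jun, Fos, Ier5, Junb, Atf3, Dusp1 and Ier2 each had a rho of at least 0.56 with the summed share of the other immediate early genes. Egr1 with Ier2 (0.59), Junb with Zfp36 (0.58) and Jun with Ier5 (0.57) were the closest pairs within the group. Dusp5, Btg1, Klf6 and Nr4a2 lay between -0.06 and 0.04, and Nr4a3 and Fosl2 at 0.15. Among the NR4A genes, rho with Fos was 0.41 for Nr4a1 and -0.01 for both Nr4a2 and Nr4a3. Jund went with Junb (0.54) more than with Fos (0.12).

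Within the heat shock genes the pair Hspa1a and Hspa1b stood first at 0.86, with 0.82 to 0.92 in the 4 sets. The near identity of the transcripts could itself place reads of one on the other. Hspa1b followed Hspa8 (0.60), Hspa1a followed Dnaja1 (0.56), and Hsp90aa1 followed Hsp90ab1 (0.56). Hsph1 and Hspe1 were loosely tied to the rest of the group, at 0.25 and 0.32. Some heat shock genes were tied to immediate early genes: rho of Jun was 0.57 with Hspa1b and 0.55 with Hspa1a, and Dusp1 with Hspa1b 0.52, while Hsp90ab1 with Fos was -0.17. The summed shares of both groups correlated at 0.51 and 0.58 in moLCs of plates 1 and 2, at 0.06 in eLCs of plate 1 and at 0.34 in eLCs of plate 2.
Of the highest cells, some were high in both and some in one. The moLC in well F11 of plate 1 had 6.22% of reads on immediate early and 2.77% on heat shock genes, with 19694 CPM of Fos. The moLC in well A9 had 6.39% and 0.589%, and the moLC in well H4, with 11.8% on heat shock genes, had 1.35% on immediate early genes and 135 CPM of Fos.

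**Figure D5:**
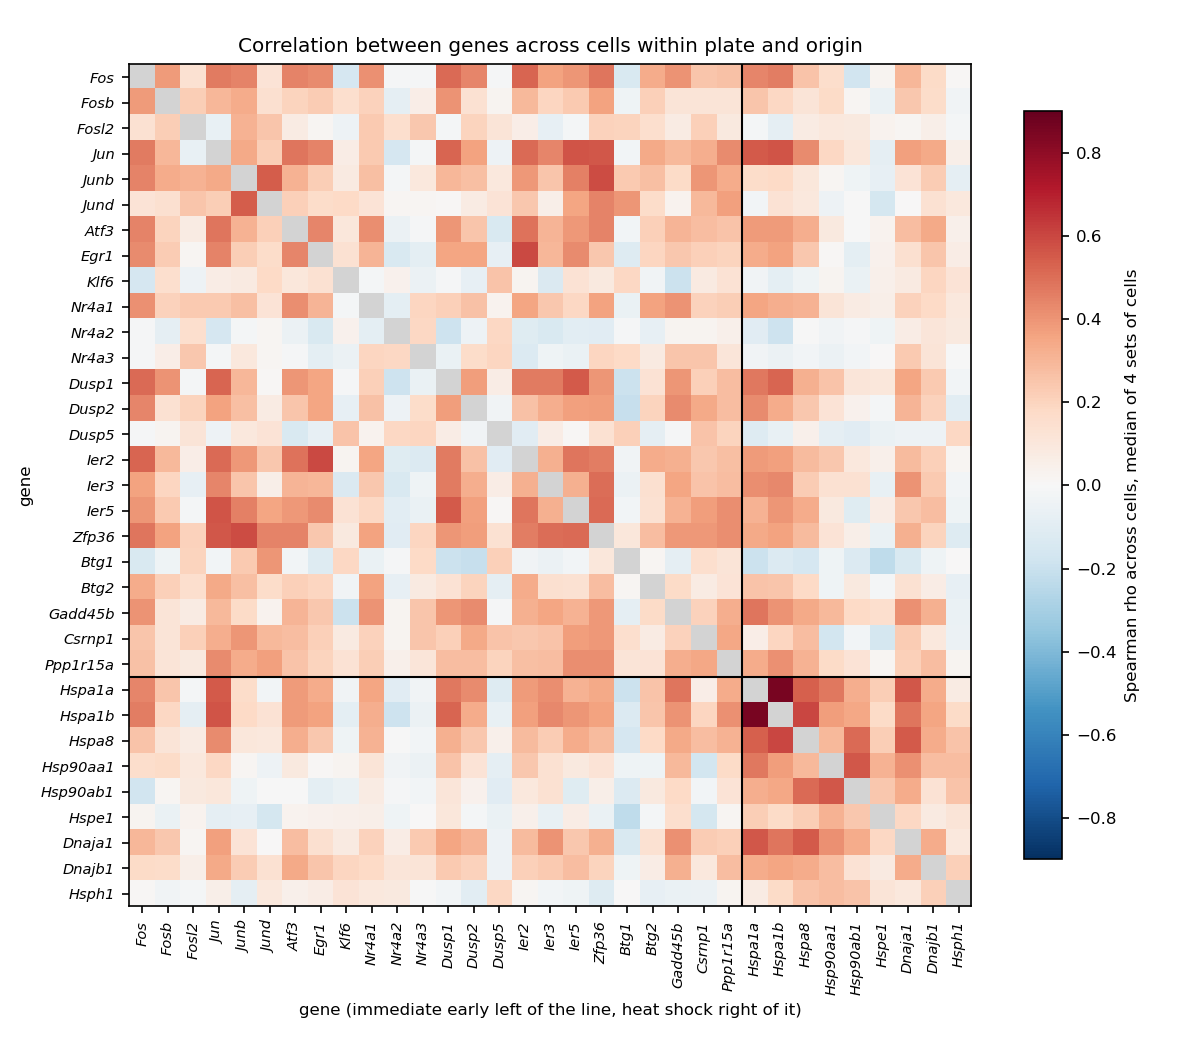
Spearman correlation across cells between the 33 genes that reached the read minimum, as the median over the 4 sets given by origin and plate. Red blocks mark genes that rise and fall together, above all Hspa1a with Hspa1b. The rows of Klf6, Nr4a2, Dusp5 and Btg1 are mostly pale, though Btg1 with Jund is at 0.40.

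Other genes of the same pathways were counted from lists of known response genes, which were chosen with earlier results of these data known. Of 30 further early response genes 22 were read often enough, and 2 were past the 2-fold rule, Nfkbiz and Socs3, both higher in moLCs, where 0.813% of all genes tested were so and 2.02% in either direction. Nfkbiz, an NF-kappa B cofactor, was at 130.1 against 47.3 CPM, with log2 ratios of 1.55 and 1.41 on the plates. Socs3, a brake on cytokine receptors, was at 107 against 48.3 CPM, with 2.04 and 1.09. Klf10 followed with 1.23 overall (1.88 and 0.27). The median of the 22 was 0.45, with 0.85 on plate 1 and 0.10 on plate 2. The kinases and factors upstream, 8 of 13 of them read often enough, had a median of 0.01 and none past the rule, the largest being Crem at -0.65, Srf at 0.36 and Mapk9 at 0.26. Hsf1 itself was level at -0.04.
Of 24 further cytosolic and mitochondrial chaperones 22 were read often enough. None was past the rule and the median was -0.09, the largest being Bag3 at 0.74, Dnajb6 at 0.41 and Cacybp at -0.37. The same median over the 9 heat shock genes was 0.51. On plates 1 and 2 it was 1.10 and 0.02 for these 9, and -0.06 and -0.21 for the 22. Hspb1 (HSP27), read in 1.94% of moLCs, held 10341 CPM in the moLC of well H4. The 14 chaperones and stress genes of the endoplasmic reticulum had a median of 0.16 and none past the rule, with Pdia4 at -0.52, Hspa5 (BiP) at 0.45 and Dnajb9 at 0.44.

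Genes outside the list whose CPM most resembled the shares across cells, by the lowest of the 4 rho values among 3265 genes, were named as well. For the immediate early share these included Klf10 (lowest rho 0.48), Pim1 (0.46), Nfkbia (0.42), Ddit3 (0.38), Rgs1 (0.38), Txnip (0.38), Sertad1 (0.37), Ifrd1 (0.35) and Dapp1 (0.33). Nfkbia, the inhibitor of NF-kappa B, was at 3189 against 2532 CPM. For the heat shock share 8 of the 10 were annotated as processed pseudogenes. Gm6210 (0.74), Gm8355 (0.73), Gm8337 (0.50), Gm8141 (0.48) and Gm8326 (0.34) aligned to Hspa8 at 92.5% to 98.4% identity over 892 to 928 bases. Gm12346 (0.50) aligned to Hsp90aa1 at 99.5%, and Gm7816 (0.35) and Gm15542 (0.31) aligned to Dnaja1 at 99.3% and 99.4%. They had under 11 CPM each, so their values cannot be told apart from misplaced reads of the genes they align to. The other two were Ahsa2 (0.37) and Stip1 (0.24), both cochaperones of HSP90.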

How the data were processed

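Single LCs were sorted from digested epidermis into plates and sequenced with a full-length Smart-Seq kit, paired-end, without molecular identifiers. Per the labels and the study's methods, the authors aligned reads with STAR to mm10 and deposited raw counts per gene and cell. The counting tool is not given in the sources used here. Of the 185 deposited columns, 8 hold expected counts that are not whole in 9 values, none of a listed gene, which were rounded. Of the deposited counts above 0, 82.9% were even, as when both mates of a pair are counted. No columns were identical.

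Cells in which mitochondrial genes took over 5% of reads were dropped. CPM is reads over the summed reads of a group, times 1000000, and a group at 0 was set to 3 reads for a ratio. The labels name no animal: cells of an origin are not replicates, no test was made, and p-values are not given. The intervals on shares of cells are exact binomial at 95%, cover counting error only and leave out the spread between animals. The read minimum was a read in 25% of moLCs or of eLCs, and a gene was called when it passed this and differed by 2-fold or more overall and on each plate with 1 sign. All 36 members are named. From the pathway lists the genes past this rule and the 3 largest differences are named, and outside the list the 10 genes most like each share, among genes read in at least 50% of cells, of which 1 is not reported here. Hspb1 and the single cells were chosen after their values were seen. The members and lists were chosen with earlier results of these data known. Scripts were tested on simulated data. Alternatives were all cells, equal weight per cell, TMM scaling in edgeR (4.0.16), library sizes that leave out the 50 most abundant genes, thinning to 2052512 reads (7 moLCs and 12 eLCs left out), each plate alone, other thresholds and leaving out single cells. A minimum of 1000 genes per cell was set as well and dropped no cell. Leaving out the 5 cells with the most inducible heat shock reads was chosen after seeing the data. Transcripts were aligned with blastn (2.17.0). Python (3.11.15) was used.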

Additional observations from a re-analysis of the deposited data

How the results depend on the processing

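No paired analysis was possible because the labels give cells no shared replicate number and no result comes from a test. Only Hspa1b passed the 2-fold rule under 9 of the other settings. Among these 9, a minimum of 1000 genes per cell dropped no cell, the lowest kept cell having 2439, so nothing could change. The read shares of 10% and 50% could not remove Hspa1b, which was read in 62.6% of all kept cells. The members past the rule were 10 within plate 1 alone (Jun, Atf3, Egr1, Nr4a1, Dusp2, Hspa1a, Hspa1b, Hspe1, Dnajb1 and Hsph1), 2 within plate 2 alone (Klf2, lower in moLCs, and Hspa1b), 2 at 1.5-fold (Egr1 joined) and 0 at 3-fold. Leaving out single cells gave 0 to 2 members, since Hspa1b lost its call without any of 15 cells of plate 2, and Egr1 was called without the eLC in well F6 of plate 2 (log2 1.79). Over all genes the count of 132 became 802 within plate 1, 849 within plate 2, 479 and 23 at read shares of 10% and 50%, 501 at 1.5-fold and 32 at 3-fold, and 124 to 141 without single cells. The summed log2 ratio of immediate early genes was 0.44 with equal weight per cell, 0.47 with TMM, 0.44 without the 50 top genes, 0.42 after thinning, 0.57 and 0.15 within the plates, 0.33 to 0.46 without single cells and 0.37 without the 5 cells. That of heat shock genes was 0.67 in all cells, 0.71, 0.77, 0.74 and 0.73 in the same order, 1.04 and 0.0162 within the plates, 0.55 to 0.71 without single cells and 0.31 without the 5 cells. The median over members was 0.51 with TMM, 0.48 without the 50 top genes, 0.43 after thinning, 0.70 and 0.0320 within the plates, 0.36 to 0.44 without single cells and 0.37 without the 5 cells. Both median correlations were taken again only after thinning, at a read share of 50% and without the 5 cells. They moved by less than their spread over the 4 sets. At 50% the same 9 heat shock genes were used, so their value could not move. With 1 sample per origin, read depth gives no error between animals, which the labels do not name.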

Other observations

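The 3 moLCs left out for mitochondrial reads, all of plate 2, held 9.97%, 14% and 29.3% of reads on mitochondrial genes. Their immediate early shares were 1.28%, 2.46% and 1.47%, within the range of the other moLCs, and their heat shock shares 0.160%, 0.211% and 0.296%, all under the moLC median of 0.885%, the first also under the lowest kept moLC (0.169%). The share of reads on immediate early genes also fell where that of H2-Aa, an MHC class II gene, was high, with rho of -0.44 and -0.09 in moLCs of the plates and -0.54 and -0.27 in eLCs. Both are shares of one total, and the part of this in the values was not tested. In row H of plate 2 the 5 moLCs had a median immediate early share of 1.51% and the 1 eLC held 5.47%. The 11 eLCs of row D, a row without moLCs, had a median of 0.585%. Over plate 2 the rho of this share with row was -0.14 in moLCs and 0.36 in eLCs. The part of row in these values was not tested.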
